A study of Canis lupus familiaris with 36 samples.

Results

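Ribosome biogenesis genes encode the nucleolar machinery that makes ribosomes. The set described here was a list of 40 gene symbols, and a gene was a member of it when the arrays carried a probe set annotated to that symbol alone. Of the 40 genes, 34 had such a probe set, out of 15115 genes with one on the arrays, and POLR1B, GNL3, LYAR, RRP9, BOP1 and PPAN did not. All 34 had a log2 intensity of at least 4 in every dog, so none was lost to the filter on low values that left 7500 genes for testing. The rule used gene symbols and no measured value, and the brightest probe set on average stood for each gene.

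The samples were primary tumours of 35 dogs with lymphoma, each tumour mechanically dissociated and filtered, and biotin-labelled cRNA made from their total RNA was read on 36 Affymetrix canine arrays. No dog without lymphoma was included, so every comparison is between tumours. The labels gave a phenotype, B for 17 dogs and T for 17, a disease state as an abbreviation, and a grade. B held DLBCL (10 dogs, high grade), BL (2 dogs, high grade) and MZL (5 dogs, low grade). T held LBT (4 dogs, high grade), PTCL (4 dogs, of which 3 were high grade and PTCL 4 was intermediate) and TZL (9 dogs, low grade). A dog labelled NBNT, low grade, had neither phenotype and entered no test. Golden Retrievers made up 6 of 10 DLBCL, 1 of 2 BL, 4 of 5 MZL, 3 of 4 LBT, 1 of 4 PTCL and 8 of 9 TZL dogs. Females made up 11 of the 17 B dogs and 8 of the 17 T dogs. Age at diagnosis, given without a unit, ran from 2 to 14 in B with a median of 6, and from 3 to 14 in T with a median of 9. Dogs are named by disease state and number, and the 2 arrays of a repeated DLBCL case were averaged as DLBCL 6.

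Ribosome production starts with RNA polymerase I, which transcribes the precursor of the large ribosomal RNAs in the nucleolus. Small nucleolar ribonucleoproteins, abbreviated snoRNPs, guide methylation (box C/D) and pseudouridylation (box H/ACA) of that precursor, and separate sets of assembly factors then build the small and the large subunit. In lymphoma these genes are known mainly as targets of MYC, a transcription factor that drives growth in many lymphoid tumours.

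Before the results, 7 samples need naming. The arrays of DLBCL 4, DLBCL 9, PTCL 3, TZL 1, TZL 2 and TZL 7 stood apart by a bright actin 3′ control, at a log2 intensity of at least 13, and the counts of calls that moved without them are given with the results. DLBCL 3 had the lowest value of all DLBCL dogs for 24 of the 34 genes, a count not given here over all genes. Defining markers matched the phenotype labels: 4 of 4 B cell markers tested were higher and 6 of 6 T cell markers lower in B. Summed intensity of the 6 T cell markers ran from 1353 to 6607 in B dogs and from 4805 to 24482 in T dogs. The tumours were not sorted, and in such bulk RNA a smaller share of cells that express a gene cannot be told apart from less of its RNA per cell. The 2 arrays of the repeated case correlated at r = 0.990 over the genes tested.

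Ribosome biogenesis genes were higher in B than in T tumours across nearly the whole list. By limma with Benjamini-Hochberg adjustment over 7500 genes, 30 of the 34 rose in B and none fell, where 24.2% of all genes tested were called higher. The median difference was 0.83 on the log2 scale, 1.78-fold, against a median of 0.03 over all genes. Calls were made for 2 of 2 RNA polymerase I subunits, 4 of 4 other nucleolar proteins, 3 of 3 box C/D proteins, 3 of 3 box H/ACA proteins, 11 of 12 small subunit factors and 7 of 10 large subunit factors. NIP7, BYSL, PES1 and RRP1B were not called.

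**Figure D1:**
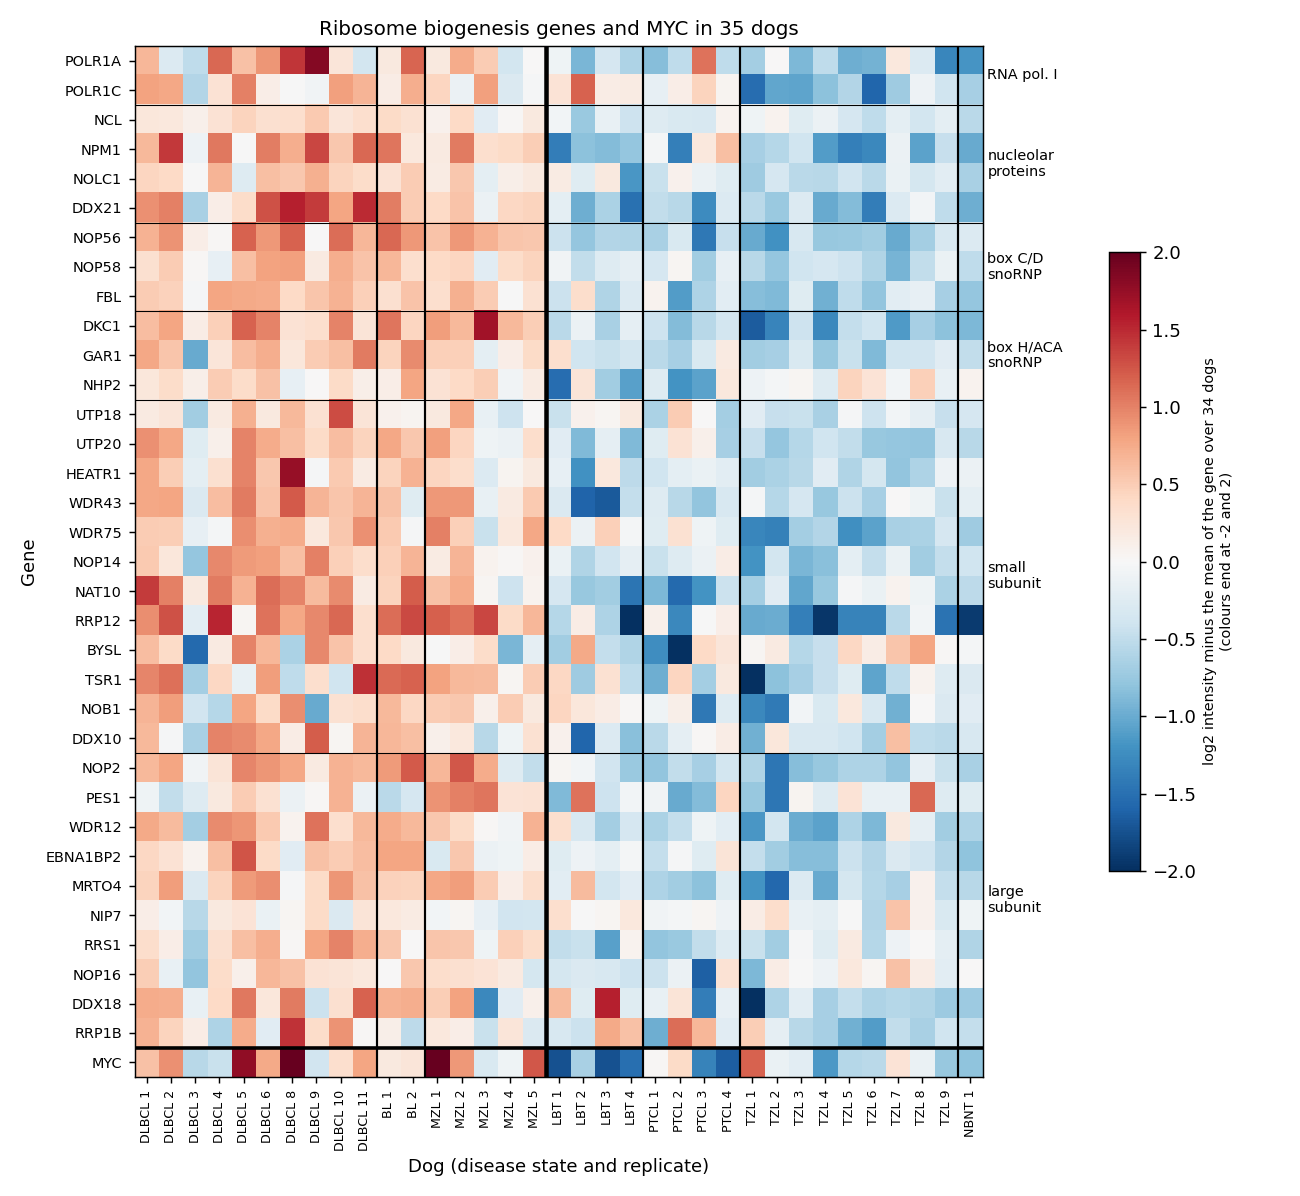
Log2 intensity of the 34 ribosome biogenesis genes and MYC (rows, by role) in 35 dogs (columns, by disease state), as the difference from each gene's mean over the 34 tested dogs. Thick lines separate B states on the left from T states and MYC from the other rows. Most rows are red in B and blue in T, DLBCL 3 is pale or blue for most genes, and NIP7 shows little contrast.

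The RNA polymerase I subunits came first in the pathway. POLR1A, the largest subunit of the enzyme, ran from 5.47 to 7.82 in B dogs with a median of 6.50, and from 4.69 to 7.07 in T dogs with a median of 5.48. It was 1.93-fold higher in B (log2 difference 0.95, SE 0.21, limma adjusted p = 0.000412) with wide overlap. POLR1C, a subunit shared with RNA polymerase III, ran from 7.44 to 9.03 in B and from 6.44 to 9.21 in T. Its difference was smaller, at 0.66 (SE 0.21, limma adjusted p = 0.0106), and the single highest value of all 34 dogs was a T tumour, LBT 2.

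Among the other nucleolar proteins, NPM1 encodes nucleophosmin, an abundant nucleolar chaperone. Its log2 intensity ran from 9.74 to 11.26 in B with a median of 10.48, and from 8.45 to 10.44 in T with a median of 9.07. The difference was 1.35 (SE 0.18, limma adjusted p = 3.08e-07), and the T dogs that reached into the B range were 3 of the 4 PTCL dogs, at 9.79, 10.04 and 10.44. DDX21, an RNA helicase of ribosomal RNA transcription and processing, ran from 7.62 to 9.83 in B and from 6.78 to 8.22 in T, a difference of 1.36 (SE 0.18, limma adjusted p = 1.94e-07). NCL, which encodes nucleolin, differed by 0.49 (SE 0.08, limma adjusted p = 8.81e-06). NOLC1, a chaperone of snoRNPs, differed by 0.65 (SE 0.12, limma adjusted p = 2.24e-05).

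The 2 genes whose B and T dogs did not overlap at all were both snoRNP core genes, where 0.227% of all genes tested had every B dog above every T dog. NOP56, a scaffold of the box C/D particle, ran from 10.34 to 11.52 in B with a median of 11.04, and from 8.90 to 10.03 in T with a median of 9.67. It was 2.66-fold higher in B (log2 difference 1.41, SE 0.13, limma adjusted p = 8.49e-11). DKC1, the pseudouridine synthase of the box H/ACA particle, ran from 8.82 to 10.35 in B with a median of 9.32, and from 7.01 to 8.56 in T with a median of 8.12. Its difference was 1.40 (SE 0.15, limma adjusted p = 2.09e-09). The lowest B value of DKC1 was that of DLBCL 3, and without that dog NOP56 and DKC1 were still the only members with no overlap.

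Their partners in the same particles had smaller differences. NOP58, the second scaffold of the box C/D particle, was 1.74-fold higher in B (0.80, SE 0.11, limma adjusted p = 2.77e-07). FBL, which encodes the methyltransferase fibrillarin, was 1.93-fold higher (0.95, SE 0.12, limma adjusted p = 6.8e-08). In the box H/ACA particle, GAR1 differed by 0.82 (SE 0.14, limma adjusted p = 1.59e-05) and NHP2 by 0.55 (SE 0.16, limma adjusted p = 0.00574). NHP2 values in T ran from 9.19 in LBT 1 to 11.19 in TZL 8, a wider range than the 10.55 to 11.50 in B.

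Small subunit factors included the widest gap of the list. RRP12, a factor in maturation and export of the small subunit precursor, ran from 6.86 to 8.60 in B with a median of 8.16, and from 4.27 to 7.23 in T with a median of 6.09. B was 3.39-fold higher (log2 difference 1.76, SE 0.23, limma adjusted p = 1.57e-07), and the overlap came from DLBCL 3 at 6.86 and DLBCL 5 at 7.12 in B. NAT10, which acetylates the small subunit RNA, ran from 6.28 to 8.08 in B and from 5.13 to 6.75 in T, a difference of 1.28 (SE 0.17, limma adjusted p = 2.48e-07).

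The factors of the early small subunit precursor differed by 0.46 for UTP18, 0.85 for HEATR1, 0.87 for WDR75, 0.95 for UTP20 and 1.09 for WDR43, each called by limma. NOP14 (0.85) belongs to the same precursor. DDX10, an RNA helicase, differed by 0.71. The late factor TSR1 differed by 0.98 and NOB1, the nuclease that trims the small subunit RNA, by 0.62. BYSL, another late factor, was the small subunit gene without a call (0.30, 95% interval −0.18 to 0.78, limma adjusted p = 0.316). Its B values ran from 5.27, in DLBCL 3, to 7.82, and its T values from 4.79 to 7.60.

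Large subunit factors held 3 of the 4 genes without a call. NOP2, a methyltransferase of the large subunit RNA, ran from 8.26 to 9.99 in B and from 7.30 to 8.79 in T, and was 2.22-fold higher in B (1.15, SE 0.15, limma adjusted p = 1.55e-07). MRTO4 (1.01), WDR12 (0.96), DDX18 (0.76), RRS1 (0.75), EBNA1BP2 (0.73) and NOP16 (0.40, limma adjusted p = 0.0334) were also called higher in B. NOP16 was the least secure of the 30 calls, since leaving out any of 4 dogs (DLBCL 6, DLBCL 8, TZL 1 or PTCL 3) moved its limma adjusted p to between 0.0504 and 0.0566. WDR12 and PES1 encode partners in 1 complex, and PES1 differed by 0.39 (95% interval −0.03 to 0.81, limma adjusted p = 0.119). RRP1B differed by 0.40 (95% interval −0.02 to 0.82, limma adjusted p = 0.116).

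NIP7, a processing factor of the large subunit, was the one member with a mean below 0 for B minus T. Its values ran from 8.45 to 9.38 in B and from 8.41 to 9.57 in T, a difference of −0.04 (95% interval −0.24 to 0.17, limma adjusted p = 0.795). The B and T ranges nearly coincided.

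Other probe sets of the same genes pointed the same way. The 34 genes had 71 probe sets between them, and of the 33 tested that had not been chosen, 27 were higher in B with a limma adjusted p under 0.05 and 0 were lower. Names of 14 of the 34 chosen probe sets end in _s_at or _a_at, which marks probe sets that can match several transcripts. NPM1 had 3 further probe sets annotated to other genes as well, and these were not used.

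RNA quality differed with phenotype, as the 3′ minus 5′ difference of the GAPDH control was on average 3.29 in B and 2.81 in T. With that control and the actin one as covariates, 26 of 34 members were called higher in B, against 18.4% of genes, and the median difference was 0.70. Without the 6 arrays that stand apart 28 were called, against 21.7% of genes. Within those 6 arrays alone, 2 B against 4 T, 33 of the 34 differences were positive with a median of 1.0. There 19 had an unadjusted p under 0.05, against 21.1% of genes, and 0 passed adjustment by limma, where 0.513% of genes were called higher.

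Across the 6 disease states, limma's F test called 28 of the 34 genes, against 56.8% of all genes. For 28 genes all 3 B states had higher means than all 3 T states. The highest mean lay in BL for 22 genes, in DLBCL for 8, in MZL for 3 and in LBT for POLR1C. The lowest lay in TZL for 22 genes, LBT for 6 and PTCL for 4. These counts of the order of means are not given here over all genes, so they are not shown to be particular to the members. BL means rest on 2 dogs, and DLBCL means include DLBCL 3, the lowest DLBCL dog for 24 genes, so the order of BL and DLBCL is uncertain. NIP7 and PES1 had their lowest means in MZL and BL.

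The mean over the 34 genes, used here as a score to describe each dog, was 8.94 in BL, 8.88 in DLBCL, 8.70 in MZL, 8.11 in LBT, 8.08 in PTCL and 7.91 in TZL. Neighbours within B differed by 0.06 for BL and DLBCL and by 0.17 for DLBCL and MZL, and neighbours within T by 0.03 for LBT and PTCL and by 0.17 for PTCL and TZL. All these are below the spread between dogs of a state (SD 0.218), whereas B and T differed by 0.84. That SD includes DLBCL 3. Without that dog the DLBCL mean was 8.97, above the 8.94 of BL. The B against T difference then rose from 3.85 to 5.80 times the SD, so how the smaller steps compare with the SD depends on that dog. MZL scores were 8.86, 8.99, 8.58, 8.46 and 8.64, LBT scores 8.22, 8.12, 8.15 and 7.94, and PTCL scores 7.97, 8.02, 8.00 and 8.31, so no LBT or PTCL dog reached the lowest MZL dog. DLBCL scores ran from 8.08 to 9.09 with a median of 8.94, and TZL scores from 7.62 to 8.20 with a median of 7.93.

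DLBCL 3, at 8.08, was the only B dog in the T range, and the next DLBCL dog was at 8.83. It was below every other B dog for 20 of the 34 genes. It may have been low for other genes too, as that count is not given here over all genes. Its B cell markers averaged 8.63 on the log2 scale, within the 7.40 to 8.86 of all B dogs, and its T cell markers 7.25, within 5.26 to 7.80. Its cell division genes averaged 7.17 in a DLBCL range of 6.81 to 8.84, and its summed endothelial marker intensity, 1186, was the highest of the B dogs. Summed intensity of the 6 stroma markers ran from 31.6 to 9509 in DLBCL with a median of 58.8. Which dog had the highest of these sums is not given here. Whether any of these values have a part in the low score of DLBCL 3 was not tested. Without DLBCL 3 the DLBCL score was 8.97 ± 0.08 (SD, n = 9).

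**Figure D2:**
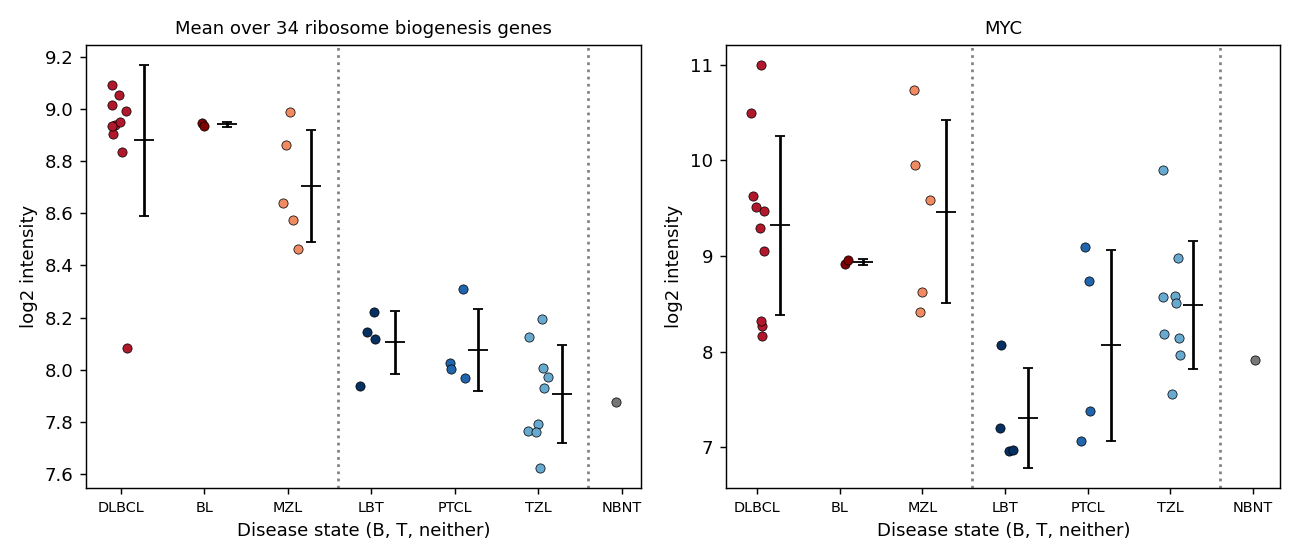
Left, mean log2 intensity over 34 ribosome biogenesis genes per dog, and right, log2 intensity of MYC, by disease state, with B states, T states and the NBNT dog separated by dotted lines. Points are dogs and bars show the mean ± SD. Scores of B and T are apart except for DLBCL 3 at 8.08, whereas MYC values of B and T overlap widely.

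The difference between phenotypes was present at low and at high grade. These comparisons share their fit, and their calls do not stand for separate evidence from B against T. Between the low-grade states MZL and TZL, limma called 23 of 34 genes higher in MZL and 0 lower, where 15.2% of all genes were called higher, with a median of 0.80. Between DLBCL and PTCL it called 21 higher and 0 lower, against 9.69% of all genes, with a median of 0.76. Without the 6 arrays that stand apart MZL against TZL had 20 members called higher, where 13.4% of genes were called higher. Both comparisons called 18 of the genes, 1 or the other called 26, and neither called POLR1A, UTP18, BYSL, DDX10, NIP7, NOP16, DDX18 or RRP1B.

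**Figure D3:**
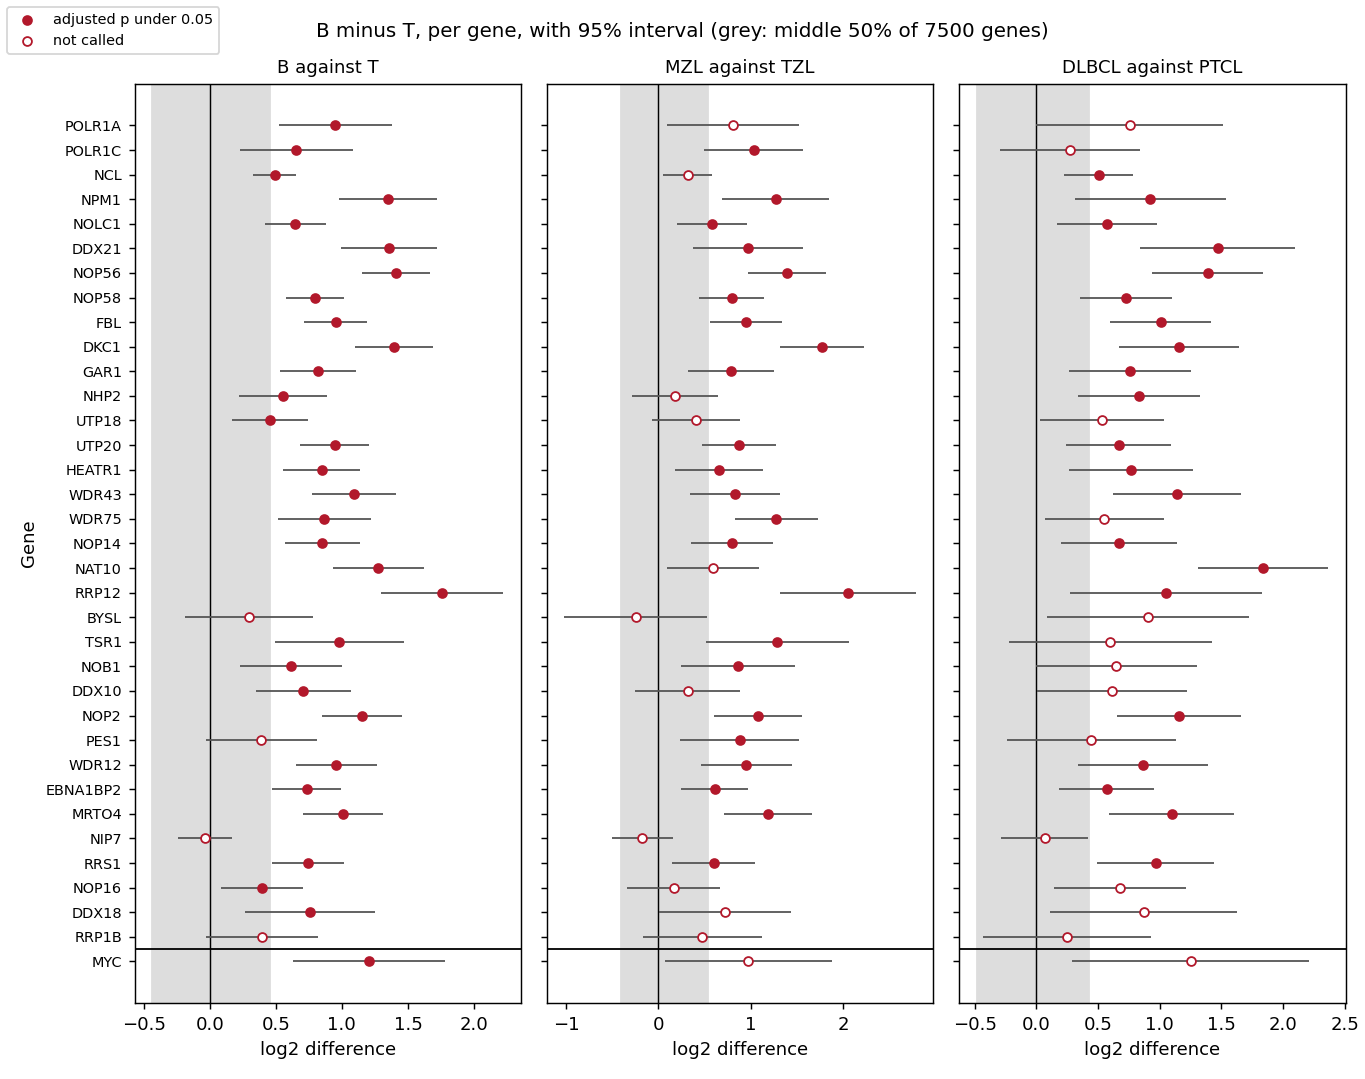
Log2 difference (point) with its 95% interval (line) for each of the 34 genes and MYC, in B against T (left), MZL against TZL (middle) and DLBCL against PTCL (right). Filled points had a limma adjusted p under 0.05, and the grey band holds the middle 50% of 7500 genes. Filled points number 30, 23 and 21 among the 34 genes, and lie to the right of 0 in each panel.

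At low grade the widest gaps were those of RRP12 and DKC1. RRP12 was 8.28, 8.16, 8.40, 7.45 and 7.74 in the MZL dogs, and ran from 5.13 to 7.02 in TZL with a median of 5.74. That is a difference of 2.05 (SE 0.36, limma adjusted p = 9.08e-05) with no overlap. DKC1 was 9.51, 9.32, 10.35, 9.33 and 9.16 in MZL and ran from 7.01 to 8.27 in TZL, a difference of 1.77 (SE 0.23, limma adjusted p = 1.04e-06), again with no overlap. In all, 9 of 34 genes had every MZL dog above every TZL dog, where 7.01% of genes did: NPM1, NOP56, FBL, DKC1, GAR1, UTP20, NOP14, RRP12 and MRTO4.

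NAT10 led between DLBCL and PTCL. It was 5.80, 5.13, 5.49 and 6.26 in the PTCL dogs and ran from 6.85 to 8.08 in DLBCL with a median of 7.66, a difference of 1.84 (SE 0.26, limma adjusted p = 1.01e-05). The groups did not overlap, which held for 5 of 34 genes (NCL, NOP56, DKC1, NAT10 and NOP2) against 1.63% of all genes. RRP12 showed 7.18, 5.79, 7.07 and 7.22 in PTCL, and its difference from DLBCL was 1.05 (SE 0.38, limma adjusted p = 0.0489). That call was lost when any of 25 of the 34 dogs was left out.

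The count for DLBCL against PTCL moved with several settings. It was 12 without PTCL 1, 13 without the 6 arrays that stand apart (6.67% of genes), 14 with the RNA quality controls as covariates (7.79% of genes), 12 in a fit of these 2 states alone and 10 in Golden Retrievers, where PTCL is a single dog assumed to vary like the others. The GAPDH 3′ minus 5′ difference averaged 3.43 in DLBCL and 2.82 in PTCL. Macrophage markers moved with this comparison, as 4 of 9 were lower in DLBCL than in PTCL. The summed intensity of the 9 ran from 95.2 to 2562 in DLBCL and from 287 to 1980 in PTCL. KDR, 1 of 2 endothelial markers tested, was also lower in DLBCL, and the sum of all 5 ran from 48.0 to 1186 in DLBCL and from 155 to 894 in PTCL. The part of these values in the result was not tested.

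DLBCL against MZL, the comparison of grade within B, gave 0 calls of 34 by limma, as it did for every gene tested (0%). At an unadjusted p under 0.05 there were 3 members, where 13% of all genes had such a p, so the count of calls says nothing about the members. The median difference was 0.21. Those 3 genes were NAT10 (0.62, 95% interval 0.13 to 1.10), EBNA1BP2 (0.41, interval 0.06 to 0.77) and PES1 (−0.64, interval −1.28 to −0.01). PES1 was 7.00, 7.11, 7.17, 6.37 and 6.39 in MZL and ran from 5.61 to 6.79 in DLBCL. For 26 of the 34 genes the 95% interval lay within a log2 difference of 1 in either direction, and for the other 8 it reached further.

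BL against DLBCL gave 0 calls of 34 by limma and 0 at an unadjusted p under 0.05, where 0.0267% of all genes were called and 5.68% had such a p. With 2 BL dogs the intervals were wide, reaching from −1.49 to 1.90 over the genes.

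Grade within T was compared between PTCL and TZL. Limma called 2 of 34 genes higher and 0 lower, a share near the 7.6% of all genes called higher, and the median difference was 0.19. WDR75, part of the early small subunit precursor, was 7.58, 8.11, 7.72 and 7.57 in PTCL and ran from 6.47 to 7.47 in TZL. Its difference was 0.81 (SE 0.24, limma adjusted p = 0.0224), and it was the 1 gene with no overlap, where 3.53% of genes had every PTCL dog above every TZL dog. POLR1C was 7.85, 8.14, 8.46 and 8.07 in PTCL and ran from 6.44 to 7.92 in TZL, a difference of 0.98 (SE 0.28, limma adjusted p = 0.0186).

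Without PTCL 2 the differences were 0.69 for WDR75 (limma adjusted p = 0.114) and 0.98 for POLR1C (0.0559). Without PTCL 3 they were 0.81 (0.0543) and 0.87 (0.0806), so both calls were lost each time, though the difference of POLR1C without PTCL 2 and that of WDR75 without PTCL 3 stayed at 0.98 and 0.81. They were lost too without the 6 arrays that stand apart (0.128 and 0.181). Without PTCL 4 there were 4 calls, these 2 and NHP2 and NAT10, both lower in PTCL. With all dogs the other NAT10 probe set tested differed by only −0.09, against −0.63 in the chosen one. Markers of other cells moved with PTCL against TZL too, as 2 of 9 macrophage markers and 1 of 2 endothelial markers tested were higher in PTCL. The macrophage sum ran from 287 to 1980 in PTCL and from 56.5 to 3088 in TZL, the endothelial sum from 155 to 894 and from 38.8 to 299, and their part was not tested.

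LBT against TZL called 4 genes by limma, 3 higher and 1 lower, where 17.8% of all genes were called higher and 12.4% lower. POLR1C was 8.29, 9.21, 8.17 and 8.18 in LBT, above every TZL dog, a difference of 1.31 (SE 0.28, limma adjusted p = 0.000747). WDR75 was 8.20, 7.70, 8.28 and 7.78 in LBT, also above every TZL dog, at 1.05 (SE 0.24, limma adjusted p = 0.00126). EBNA1BP2 was the third gene with no overlap, where 10.3% of genes had every LBT dog above every TZL dog, although its difference of 0.43 did not pass (limma adjusted p = 0.0895). In the same comparison 2 of 4 B cell markers tested were lower in LBT, where the sum of all 5 ran from 30.4 to 1930 against 326 to 2976 in TZL. Of 9 macrophage markers 1, CD14, was higher and of 6 T cell markers 1, CD5, was lower in LBT, and the part of these markers was not tested.

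The other calls in LBT depended on single dogs. DDX18, a helicase of large subunit assembly, was 8.39, 7.50, 9.30 and 7.51 in LBT and ran from 5.53, in TZL 1, to 7.53 in TZL. Its difference of 1.17 (SE 0.38, limma adjusted p = 0.0188) was lost without LBT 1 (0.0601) or LBT 3 (0.144). NHP2 was 9.19, 10.96, 10.00 and 9.62 in LBT and ran from 10.45 to 11.19 in TZL. It was 1.79-fold lower in LBT (−0.84, SE 0.25, limma adjusted p = 0.0106), a call lost without LBT 1 (0.101).

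LBT against PTCL gave 0 calls of 34 by limma, where 0.68% of all genes were called, and 1 gene, NPM1, had an unadjusted p under 0.05, against 12.5% of all genes. The difference between the grade steps, DLBCL minus MZL less PTCL minus TZL, gave 0 calls of 34 by limma against 1.96% of all genes. At an unadjusted p under 0.05 there were 3 genes, against 14.1% of all genes: NAT10 (1.25, limma adjusted p = 0.059), BYSL (1.15, limma adjusted p = 0.34) and WDR75 (−0.73, limma adjusted p = 0.287). NAT10 was called without 1 of DLBCL 3, DLBCL 11, MZL 2, TZL 3 and PTCL 4, with a limma adjusted p between 0.0182 and 0.0436. The size also depended on the probe set. PTCL minus TZL was −0.63 in the chosen NAT10 probe set and −0.09 in the other one tested, and DLBCL minus PTCL was 1.84 and 1.24.

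Cell division genes, a list of 13 that served as a measure of proliferation, were measured in the same dogs. All 13 were higher in PTCL and in LBT than in TZL, 2 comparisons that share the TZL dogs, with medians of 3.08 and 3.13. CENPF, a kinetochore protein, ran from 7.18 to 8.94 in PTCL and from 1.98 to 5.48 in TZL (limma adjusted p = 1.94e-05), where 4 of 9 dogs were below the log2 minimum of 4. KIF11, a spindle motor, ran from 8.52 to 9.48 in LBT and from 2.99 to 7.05 in TZL (limma adjusted p = 7.07e-06), where 2 dogs were below it. In those comparisons the 34 ribosome biogenesis genes had medians of 0.19 and 0.16. Between B and T, 5 of the 13 cell division genes were higher in B, and their median difference was 0.94. Of the 13, 8 were higher in MZL than in TZL with a median of 1.38, and 0 were called between DLBCL and MZL, where 11 had an unadjusted p under 0.05 and the median was 1.36. No test compared the lists with each other.

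**Figure D4:**
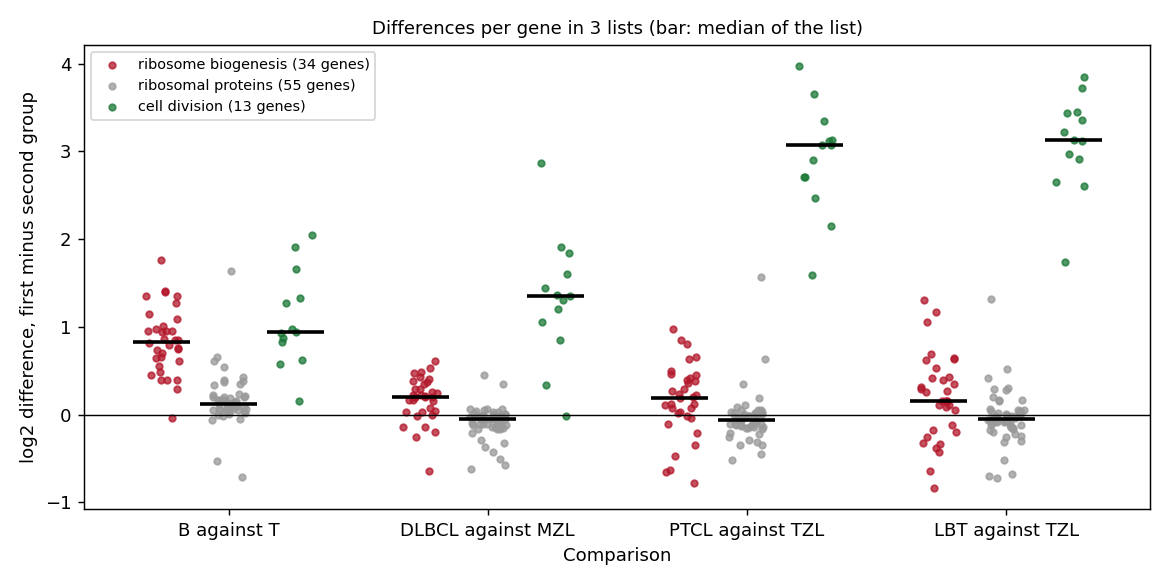
Log2 difference per gene (points) in 4 comparisons for 34 ribosome biogenesis genes, 55 ribosomal protein genes and 13 cell division genes, with the median of each list as a bar. Ribosome biogenesis genes have a median of 0.83 in B against T and 0.16 to 0.21 in the other comparisons, while cell division genes have medians of 3.08 and 3.13 in PTCL and LBT against TZL.

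MYC itself was higher in B. It ran from 8.16 to 11.00 in B with a median of 9.30, and from 6.96 to 9.90 in T with a median of 8.14, so the groups overlapped widely. The difference was 1.21 (SE 0.28, limma adjusted p = 0.000798). Its state means were 9.46 in MZL, 9.32 in DLBCL, 8.94 in BL, 8.49 in TZL, 8.07 in PTCL and 7.30 in LBT. That order is not the order of the score in T, where LBT was highest and TZL lowest. The score steps there were only 0.03 and 0.17 and were not tested, and limma called no MYC difference between T states, so neither order is established. LBT dogs had MYC at 6.96, 8.07, 6.98 and 7.21, and the LBT minus TZL difference was −1.18 (95% interval −2.16 to −0.21, limma adjusted p = 0.0599).

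Within disease states no member's slope on MYC passed the test across all genes. With a mean for each state and a common slope on MYC, limma called 0 of 34 members, where 0.0667% of all genes were called. Unadjusted p values under 0.05 were found for 5 members, against 12.1% of all genes, all with positive slopes: WDR43 (0.25 log2 units per log2 unit of MYC, SE 0.09), UTP18 (0.23), UTP20 (0.20), WDR75 (0.20) and RRP1B (0.28). The 95% intervals of all 34 slopes lay between −0.51 and 0.53.

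In B dogs alone limma called 6 of 34 slopes, against 7.91% of the genes tested there: DDX18 (0.51), HEATR1 (0.44), NOB1 (0.44), WDR75 (0.40), WDR43 (0.35) and UTP20 (0.32). WDR75 was called when any 1 of the 17 dogs was left out, and the count ran from 2, without DLBCL 9, to 6. It was 3 without DLBCL 5, DLBCL 8 or MZL 3, and 4 without DLBCL 3, DLBCL 4 or MZL 4. In T dogs alone it called 0 of 34 and 0% of the genes tested, with 2 members, HEATR1 (−0.27) and TSR1 (−0.55), at an unadjusted p under 0.05, against 6.1% of those genes.

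The slopes of B and T were then compared in 1 fit. There the B slopes of HEATR1, WDR75 and UTP20 were again called, and that of NOP58 was too (limma adjusted p = 0.0482). Those of DDX18, NOB1 and WDR43 were not, with limma adjusted p values of 0.0515, 0.0535 and 0.0505. Positive slopes were found for 29 of 34 members in B and for 10 in T. In B dogs alone 29 were also positive, and without DLBCL 3 only 18 were. The median slope of the members was 0.11 in B and −0.07 in T. Over all genes the medians leaned the same ways, at 0.02 in B and −0.04 in T. Limma called the difference of slopes for HEATR1 alone (0.70, SE 0.14, limma adjusted p = 0.0241), against 1.77% of all genes. That call was lost without TZL 1, which had the highest MYC of the T dogs (9.90) and the lowest score of all (7.62), and whose array is among the 6 that stand apart. Without PTCL 2 there were 3 calls, and without PTCL 3 there were 4, HEATR1 and WDR75 among them both times.

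Scores and MYC are given together as a description. Over the 10 DLBCL dogs Pearson's r was 0.55 and Spearman's rho 0.62, and r was 0.81 without DLBCL 3 and DLBCL 8, the dogs farthest from the median MYC. Over the 9 TZL dogs r was −0.17 and rho −0.02, with r at 0.39 without TZL 1 and TZL 4. With state means subtracted, r was 0.57 over the 17 B dogs and −0.29 over the 17 T dogs, and 0.00 in T without PTCL 2 and TZL 1. Both values come from the same array in each dog.

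**Figure D5:**
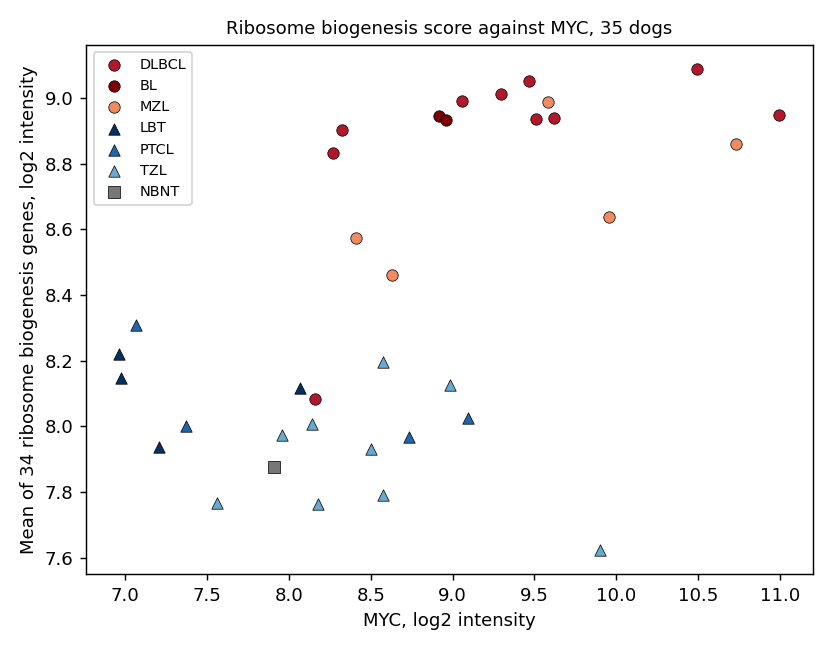
Mean log2 intensity over the 34 ribosome biogenesis genes against log2 intensity of MYC, 1 point per dog, by disease state. B dogs lie above 8.4 at any MYC value except DLBCL 3, T dogs lie below 8.4, and the T dog with the highest MYC (9.90) has the lowest score (7.62).

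Members varied together within disease states to different degrees. After state means were subtracted, correlations between pairs of members over 34 dogs had a median of 0.25 and ran from −0.53 to 0.85, with 442 of 561 pairs above 0. The median correlation of a member with the mean of the other members was 0.46, and that of a non-member gene with the score was 0.06. GAR1 (0.79) and NOP14 (0.70) had the highest Pearson correlation with the mean of the other members, and RRP1B (−0.08) the lowest. By Spearman's rho GAR1 was again highest (0.67), MRTO4 next (0.62) and RRP1B lowest (−0.12), while NOP14 was at 0.44. The highest pair was NOP56 with NOB1 at 0.85. MYC correlated with the score at 0.27, which placed it 1687 of 7466 genes that are not members. That value pools 0.57 in B and −0.29 in T. It was 0.39 without the 6 arrays that stand apart and 0.40 without DLBCL 8 and TZL 1, so the rank depends on a few dogs.

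The 6 genes most like the score by that correlation were PHB (0.83), MIPEP (0.82), SLC25A32 (0.80), GRHPR (0.80), FTSJ3 (0.79) and TIMM8A (0.78). FTSJ3 is a methyltransferase of ribosome assembly, PHB encodes prohibitin, MIPEP is a mitochondrial peptidase, SLC25A32 a mitochondrial carrier, and TIMM8A a chaperone of mitochondrial import.

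Other genes of the same pathway, from lists of non-members, were also more often higher in B than lower, where 24.2% of all genes were called higher. Of other RNA polymerase I genes 5 of 9 were higher and 0 lower, led by TCOF1, the treacle protein of the nucleolus (1.27, SE 0.19). Of other small subunit processome genes 26 of 33 were higher and 0 lower, led by UTP14A (1.50, SE 0.22) and RCL1 (1.39, SE 0.18). Among other large subunit assembly genes 24 of 36 were higher, with GNL2 at 1.43 (SE 0.14), and 1, SENP3, was lower (−0.43, SE 0.14). Other snoRNP assembly genes were higher in 7 of 10 and lower in 0, with NOP10, the fourth core protein of the box H/ACA particle, at 0.66 (SE 0.10).

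Genes for ribosomal proteins, which the assembly factors put together, were also measured. Of 55 tested, 14 were higher in B, a share near the 24.2% of all genes, and 2 were lower, with a median of 0.12. RPS4X had the largest difference (1.64, SE 0.38), with 5 of 17 T dogs below the log2 minimum of 4. RPS10 (−0.71, SE 0.17) and RPL17 (−0.53, SE 0.09) were lower. Ribosomal protein genes have many near-identical pseudogene copies, so single values are uncertain.

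Of other MYC targets 11 of 16 were higher in B and 0 lower, where 24.2% of all genes were called higher. Their median was 0.65, and among them was CAD (1.14, SE 0.15), the enzyme that starts pyrimidine synthesis. LBT, the state with the lowest MYC mean, had 9 of these 16 genes higher than TZL, where 17.8% of all genes were called higher. The largest differences were those of PPAT (2.29, SE 0.80), which was below the log2 minimum in 4 of 9 TZL dogs, and MTHFD2 (2.23, SE 0.36). All 13 cell division genes were higher in LBT than in TZL too. Of 6 MYC network genes tested, MXI1, which encodes a partner of MAX that opposes MYC, was higher in B (limma adjusted p = 9.35e-08). It ran from 4.95 to 7.55 in B and from 1.90 to 5.33 in T, where 11 of 17 dogs were below the log2 minimum of 4, so no fold is given. MLX was lower in B (−0.40, SE 0.12). MXD4 was called lower in B, where 14 of 17 dogs were below the minimum, and MYCN was below the log2 minimum of 4 in every dog.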

How the data were processed

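Primary tumours of 35 dogs were measured on 36 arrays. Per the submitters' processing notes the authors normalized the arrays together with GCRMA (version not given in the sources used here), and the deposited values are linear intensities for 43035 probe sets. Intensities were floored at 1 and taken to log2, and the 2 arrays of a repeated case were averaged. Each gene was represented by the probe set with 1 annotated symbol and the highest mean. Genes at log2 4 or more in at least 4 of 34 dogs were tested, 7500 in all, with limma 3.58.1 in R 4.3.3 (lmFit and eBayes, Benjamini-Hochberg adjustment over all genes, called under 0.05), which was tested on simulated data first. B and T were compared as 2 means, disease states in a fit of 6 means, and MYC as a slope within states. The limma p-values measure the spread between dogs.

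All members could be named, with MYC, up to 3 called genes per direction of each other list and comparison, and the 6 genes most correlated with the score. Members and lists were chosen with earlier results of these data known. Alternatives varied the filter, normalization, probe set, variance model, array weights, the arrays that stand apart, RNA quality, sex and age, breed and single dogs. Those chosen after seeing the data were the test within the arrays that stand apart, the MYC slope with phenotype in place of state, separate slopes with each dog left out, and non-overlap without DLBCL 3. Promoter and protein sequences were not used here, and the number of arrays limits the precision.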

Additional observations from a re-analysis of the deposited data

Results flagged for a closer look

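In groups of 4 to 10 dogs, the highest or lowest dog lay far from the others, by Dixon's 95% limit on its gap to the nearest dog, in 20 of 180 groups examined. Chance flags about 1 group in 20.

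DLBCL 3 was low in 5 of them. Its score was 8.08, with the next DLBCL dog at 8.83. It was also far below the other DLBCL dogs for FBL at a log2 intensity of 11.22, GAR1 at 5.08, WDR43 at 8.16 and NOP14 at 6.37. MZL 3 was low within MZL for DDX21 (8.16), NOP58 (11.00) and RRS1 (5.39), and TZL 1 was low within TZL for TSR1 (4.10) and DDX18 (5.53).

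LBT 2 was high within LBT for POLR1C (9.21), BYSL (7.58) and MRTO4 (9.55). LBT 1 was low for NPM1 (8.45) and high for GAR1 (6.43). In PTCL, PTCL 4, the dog of intermediate grade, was high for NCL (12.04) and for the score (8.31, next 8.02), and PTCL 2 was low for RRP12 (5.79). Single values in MZL were NOP14 in MZL 2 (7.82, high) and NOP16 in MZL 5 (7.04, low).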

How the results depend on the processing

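The count for B against T was between 26 and 31 under every other filter, scaling, probe set, variance model, covariate, breed and weight setting tried, 29 to 31 when 1 dog was left out, and 0 within the 6 arrays that stand apart, where 6 arrays were fitted. There MYC turned to −0.41 (limma adjusted p = 0.753), the 1 reversal among single genes, of which 17999 values kept their call, 222 lost it and 127 gained it. MZL against TZL ranged from 17 to 24 and LBT against TZL from 3 to 6 when 1 dog was left out. DLBCL against PTCL fell to 13 without the 6 arrays, 10 in Golden Retrievers and 12 with these states alone, and ranged from 12 to 25 with 1 dog left out. PTCL against TZL gave 0 with array weights and without the 6 arrays, and ranged from 0 to 4 with 1 dog left out. In Golden Retrievers it gave 2 other genes, BYSL and NHP2, both lower. DLBCL against MZL gave 1 with array weights, NAT10. The difference between grade steps gave 1 with quantile normalization (NAT10), 1 in Golden Retrievers (BYSL) and 0 to 1 with 1 dog left out. The MYC slope gave 6 in B dogs only. The score difference over the SD within states, with 1 dog left out, ranged from 3.74 to 5.80 for B against T, 3.39 to 5.20 for MZL against TZL and 3.47 to 5.83 for DLBCL against PTCL, each highest without DLBCL 3. The cause was not tested for any of these changes. No paired analysis was possible because the labels give no replicate numbers shared between groups. Another MYC probe set was not run, since MYC had 1 with its symbol alone.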

Other observations

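The NBNT dog, whose label gives neither phenotype, had a score of 7.88 and MYC at a log2 intensity of 7.91. For 33 of the 34 ribosome biogenesis genes its value lay within the range of the T dogs, and for 17 it lay below every B dog. The dog is not placed with T by these counts, whose shares over all genes are not given here. Its T cell markers averaged 10.57 and its B cell markers 7.80 on the log2 scale. No comparison used this dog.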
